A study of Homo sapiens with 9 samples.

Results

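The genes described are 10 imprinted genes, PEG10, SGCE, MEST, H19, IGF2, CDKN1C, PHLDA2, GRB10, PLAGL1 and MEG3, chosen by symbol. Their rows were present in the count tables of all 9 libraries, among 58920 listed genes. RNA was sequenced from the colorectal cancer cell line LIM1215 in 3 forms. LIM1215-parental cells had been kept without cetuximab, an antibody against the epidermal growth factor receptor, while LIM1215-R1 and LIM1215-R2 were selected separately from the parental line under rising cetuximab. Both resistant lines are mixed populations rather than single clones, and all 3 lines were grown in untreated culture for sequencing. Each line had 3 libraries that the study's legends call technical replicates, so p-values measure only the spread between these libraries.

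Imprinted genes are expressed from the maternal or the paternal allele alone in at least some tissues, because methylation of control regions differs between the parental chromosomes. They lie in clusters, and many set the growth of the fetus and placenta. Loss of imprinting of H19 and IGF2 has been studied in colorectal cancer. Gene-level counts do not tell the alleles apart, so neither imprinting nor its loss was measured here. In bulk RNA, fewer cells expressing a gene and less RNA per cell cannot be told apart.

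Total counts per library lay between 13737416 and 18725014. Of the 13 markers of colorectal epithelium, 12 had a mean of at least 1 CPM (counts scaled to the library total) in every line, and KRT20 was at 0 in all. Their summed level was 13500 to 13800 CPM in parental, 17600 to 17900 in R1 and 16300 to 16700 in R2 libraries. Of the 17 markers of other cell types, 5 had a mean of at least 1 CPM in parental, 3 in R1 and 3 in R2. The 17 summed to 13.7 to 17.0 CPM in parental, 16.6 to 18.6 in R1 and 12.9 to 14.2 in R2 libraries. CD68 was the largest term, with means of 8.29 CPM in parental, 13.4 in R1 and 9.79 in R2. PTPRC, CD3E, COL1A2 and CHGA were at 0 in all. The part of these shifts in the results below was not tested.

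Sequences are shown for H19, PLAGL1 and GRB10, whose levels differed between lines. H19 is a long noncoding RNA whose exon holds both mature arms of miR-675 on the minus strand of chromosome 11 (hg38), the 5p arm at 1996800 to 1996822 and the 3p arm at 1996768 to 1996787. The mature miRNAs follow 5′ to 3′ with the seed, bases 2 to 8, in capitals.
hsa-miR-675-5p: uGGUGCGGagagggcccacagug
hsa-miR-675-3p: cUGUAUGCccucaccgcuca
The seeds of both arms differ from each other. The row of the hairpin gene MIR675 held 0 counts in the 9 libraries, and mature miRNAs were not measured by this poly(A) RNA assay.

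The 250 bases before a listed transcription start are given below from RefSeq (GRCh38.p14) for H19, PLAGL1 and GRB10, all on the minus strand and 5′ to 3′, with CpG dinucleotides in capitals because CpG methylation marks imprinted alleles. For GRB10, 241 bases are shown, since the remainder lies in a UTR of another transcript. Whether the stretches shown lie in the control regions of the imprints was not examined.
H19, chr11:2001267-2001516: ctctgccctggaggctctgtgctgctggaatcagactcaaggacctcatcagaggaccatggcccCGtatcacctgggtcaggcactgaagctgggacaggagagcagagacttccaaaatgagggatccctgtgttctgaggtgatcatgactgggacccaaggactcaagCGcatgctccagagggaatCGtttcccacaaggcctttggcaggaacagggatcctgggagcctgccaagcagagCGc
PLAGL1, chr6:144064600-144064849: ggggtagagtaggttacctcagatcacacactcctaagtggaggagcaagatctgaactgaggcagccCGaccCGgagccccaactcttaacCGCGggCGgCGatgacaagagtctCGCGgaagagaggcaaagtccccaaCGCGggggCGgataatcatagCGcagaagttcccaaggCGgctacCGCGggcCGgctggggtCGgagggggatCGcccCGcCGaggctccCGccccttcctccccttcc
GRB10, chr7:50793463-50793703: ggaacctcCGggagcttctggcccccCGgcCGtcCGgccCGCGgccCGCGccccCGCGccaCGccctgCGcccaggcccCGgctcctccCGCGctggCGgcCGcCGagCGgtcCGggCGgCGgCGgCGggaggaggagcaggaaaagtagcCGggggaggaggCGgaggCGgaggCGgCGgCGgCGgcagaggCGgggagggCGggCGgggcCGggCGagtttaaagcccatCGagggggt
The H19 window held 4 CpG, the PLAGL1 window 21 and the GRB10 window 37, beside a median of 11 over the 35116 windows of 250 bases in the table. The hexamer TGCCGC, or its reverse complement GCGGCA, is bound by the imprint-maintaining zinc finger protein ZFP57 when methylated. The GRB10 window shown held it 1 time, and the H19 window and the PLAGL1 window shown did not hold it. The other GRB10 windows, with 3, 2, 19 and 40 CpG, did not hold it either. Another of the PLAGL1 windows, chr6:144008260-144008509, held it 2 times and had 32 CpG, and it is not shown because most of it lies in a UTR. Of all windows, 12.7% held it and 1.69% held it 2 or more times. A match describes the letters only. RefSeq lists 5 starts for PLAGL1, 5 for GRB10 and 1 for H19.

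In the comparison with the parental line, PEG10 was the member that rose furthest in both resistant lines. PEG10 (chromosome 7, 94656325 to 94669695, plus strand) is a paternally expressed gene that derives from a retrotransposon and encodes Gag- and Pol-like proteins. Its level was 12.8, 10.5 and 9.51 CPM in the 3 parental libraries. It was 32.9, 33.9 and 32.3 CPM in R1, and 86.8, 88.3 and 83.0 CPM in R2. The 3 lines did not overlap, and the order was parental, R1, R2. The means were 10.9 ± 1.70 CPM in parental, 33.0 ± 0.811 in R1 and 86.0 ± 2.77 in R2 (SD, n = 3). By edgeR's quasi-likelihood test, with p adjusted by Benjamini-Hochberg, PEG10 was 3.02-fold higher in R1 (log2 fold change 1.60, SE 0.0889, adjusted p = 3.39e-14) and 7.88-fold higher in R2 (2.98, SE 0.0825, adjusted p = 1.16e-20). Between the resistant lines it was 2.61-fold higher in R2 (log2 fold change 1.38, SE 0.0711, edgeR adjusted p = 1.41e-13). The increase in R1 lay close to the size threshold of 1.5 and was 1.49 without parental replicate 3.

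**Figure D1:**
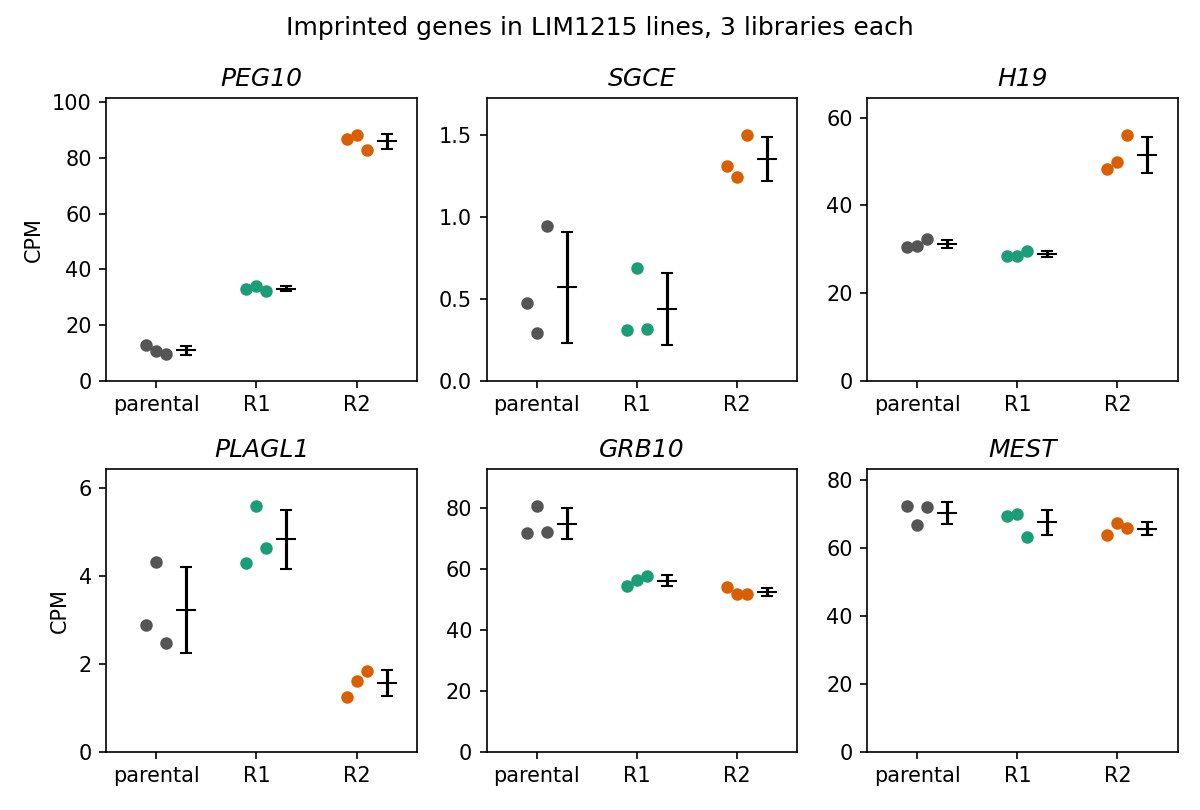
Level in CPM (vertical axes, each from 0) of the 6 imprinted genes with enough counts to test, in the 3 libraries of each LIM1215 line; points are libraries and bars the mean ± SD (n = 3). PEG10 rises from parental (9.51 to 12.8) through R1 (32.3 to 33.9) to R2 (83.0 to 88.3), while the R2 libraries lie below all others for PLAGL1 (1.25 to 1.83).

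SGCE encodes epsilon-sarcoglycan, a membrane protein mutated in myoclonus-dystonia, and is also paternally expressed. It lies on the minus strand (chromosome 7, 94584980 to 94656133), with 191 bases between the gene bodies of SGCE and PEG10 in RefSeq. In GENCODE v44, exons of the 2 genes share 219 bases on opposite strands. Its counts were low, at 8, 4 and 18 in parental, 5, 11 and 5 in R1, and 22, 20 and 23 in R2 libraries. These are 0.472, 0.289 and 0.946 CPM in parental, 0.307, 0.690 and 0.313 in R1, and 1.31, 1.24 and 1.5 in R2. The R2 libraries lay above all others, whereas parental and R1 overlapped. SGCE was 3.06-fold higher in R2 than in R1 (log2 fold change 1.61, SE 0.408, edgeR adjusted p = 0.00784). Against parental cells the log2 fold change was 1.17 in R2 (SE 0.381, edgeR adjusted p = 0.0187) and -0.44 in R1 (SE 0.467, adjusted p = 0.518), neither past the threshold of 0.01. The difference between the resistant lines missed the threshold in 5 of 9 fits that left out 1 library, with adjusted p up to 0.0534, and with DESeq2 (adjusted p = 0.0228). SGCE, beside PEG10, thus had a level of 0.437 ± 0.220 CPM in R1 against 0.569 ± 0.339 in parental (SD, n = 3).

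CASD1, which encodes a sialic acid O-acetyltransferase and overlaps the body of SGCE, was lower in both resistant lines. It was at 8.44, 7.66 and 8.51 CPM in parental, 6.81, 4.39 and 5.69 in R1, and 2.68, 2.73 and 2.94 in R2 libraries, with no overlap between lines. Its log2 fold change was -1.56 in R2 (SE 0.164, edgeR adjusted p = 1.19e-08) and -0.54 in R1 (SE 0.146, adjusted p = 0.0039), and -1.02 between R2 and R1 (SE 0.174, adjusted p = 0.000147). The R1 difference missed the threshold in 4 of 9 fits that left out 1 library (parental replicate 1 or 3, R1 replicate 2 or 3), with -0.39 and an edgeR adjusted p of 0.0384 without R1 replicate 2, and with DESeq2 (adjusted p = 0.0162). PPP1R9A, which encodes the actin-binding protein neurabin-1 and is imprinted in some tissues, was 47.4 ± 1.61 CPM in parental, 44.7 ± 4.05 in R1 and 59.5 ± 3.99 in R2 (SD, n = 3). It rose in R2 (log2 fold change 0.33, edgeR adjusted p = 0.000442) and did not pass the test in R1 (-0.08, adjusted p = 0.406).

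**Figure D2:**
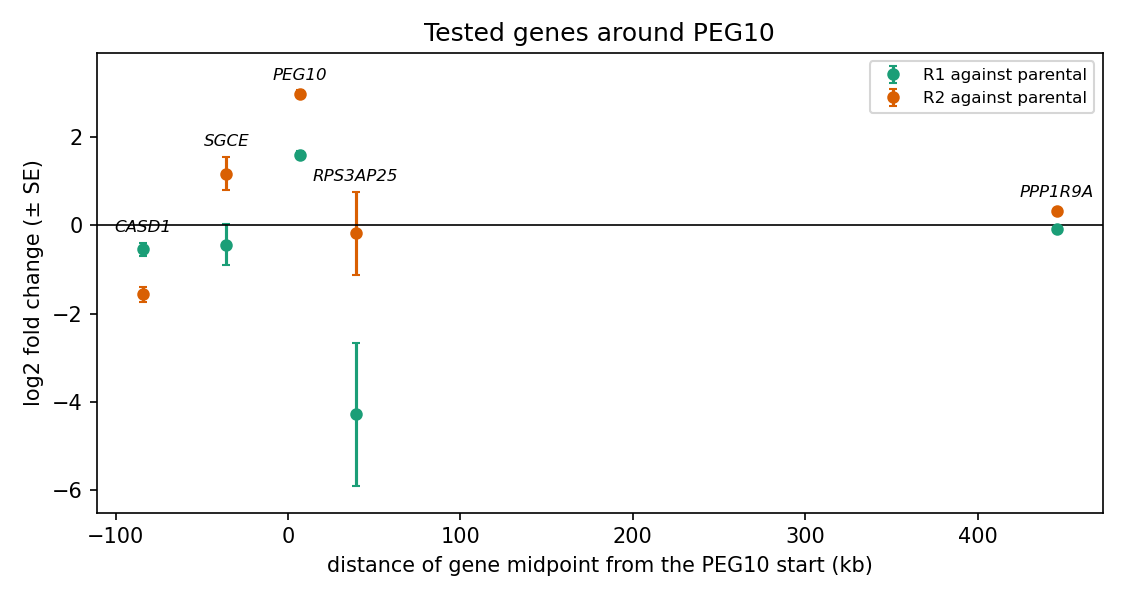
Log2 fold change (vertical axis, ± SE) against LIM1215-parental of each tested gene around PEG10, by the distance of its midpoint from the PEG10 start in kb; green is R1 and orange R2. PEG10 lies above 0 in both lines (1.60 and 2.98), SGCE did not pass the test in either (-0.44 and 1.17), CASD1 is low in both (-0.54 and -1.56), and RPS3AP25, a pseudogene with few counts, has wide errors and passed no test.

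H19 is the maternally expressed noncoding RNA of the cluster on chromosome 11 (1995176 to 2001266, minus strand). It was at 30.6, 30.8 and 32.3 CPM in parental libraries, 28.5, 28.4 and 29.7 in R1, and 48.3, 49.9 and 56.1 in R2. R2 lay above every other library, and R1 lay just below parental without overlap. H19 rose in R2 by a log2 fold change of 0.72 (1.64-fold, SE 0.0705, edgeR adjusted p = 3.72e-09) and did not pass the test in R1 (-0.11, SE 0.0744, adjusted p = 0.26). The difference between R2 and R1 was 0.83 (SE 0.0713, edgeR adjusted p = 2.39e-09).

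IGF2, the fetal growth factor expressed from the paternal allele of the same cluster (chromosome 11, 2129117 to 2149566, minus strand), was listed at 0 counts in all 9 libraries. The limit that 0 counts allow was 0.0602 CPM over the parental, 0.0622 over the R1 and 0.0621 over the R2 libraries, for counting error only. IGF2 shares 1460 exon bases on the same strand with INS-IGF2 (20.4% of its exon bases in GENCODE v44), which was also at 0, and how reads in overlapping genes were counted was not given in the sources used here. CDKN1C, the cyclin-dependent kinase inhibitor p57, held 2 counts in parental, 1 in R1 and 0 in R2 libraries. PHLDA2, a pleckstrin homology domain protein that restrains placental growth, held 1 count in parental, 2 in R1 and 0 in R2 libraries. Both are maternally expressed genes of chromosome 11 (2883218 to 2885775 and 2928273 to 2929420). MEG3, a maternally expressed noncoding RNA of chromosome 14 (100826108 to 100861026), was at 0 in all libraries. These 4 members were thus below detection, at 3 counts or fewer, in each line, and no difference between lines was detectable in these counts. EHMT2, a broadly expressed gene, was also listed at 0 in all libraries. Counts this low are therefore not read as absence of RNA for any of the 4.

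PLAGL1 encodes a zinc finger transcription factor that can arrest the cell cycle and is expressed from the paternal allele (chromosome 6, 143940300 to 144064599, minus strand). It was at 2.89, 4.33 and 2.47 CPM in parental libraries. R1 libraries had 4.29, 5.59 and 4.63 CPM, and R2 libraries 1.25, 1.61 and 1.83. R2 lay below all other libraries, and parental and R1 overlapped. Between the resistant lines PLAGL1 was 0.323 times as high in R2 (log2 fold change -1.63, SE 0.226, edgeR adjusted p = 8.56e-06). Against parental cells it fell in R2 (-1.02, SE 0.240, edgeR adjusted p = 0.00136), while in R1 the log2 fold change of 0.61 did not pass the test (SE 0.199, adjusted p = 0.0171). The fall in R2 missed the threshold without parental replicate 2 (-0.78, edgeR adjusted p = 0.0139) and without R2 replicate 1 (-0.88, adjusted p = 0.016), and the R1 value passed it without parental replicate 2 (0.85, adjusted p = 0.00123). PLAGL1 shares 289 exon bases (4.51%) on the same strand with HYMAI, which held 1 count in the 9 libraries.

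GRB10 encodes an adaptor protein that inhibits insulin and insulin-like growth factor receptor signalling, and its imprinting depends on the tissue and isoform (chromosome 7, 50590068 to 50793453, minus strand). It was at 71.9, 80.6 and 72.0 CPM in parental libraries, 54.3, 56.4 and 57.8 in R1, and 54.1, 51.9 and 51.7 in R2. Both resistant lines lay below the parental line without overlap. GRB10 fell by 0.41 on the log2 scale in R1 (SE 0.0604, edgeR adjusted p = 3.56e-06) and by 0.51 in R2 (SE 0.0608, adjusted p = 1.31e-07). The difference between R2 and R1 did not pass the test (-0.10, SE 0.0621, edgeR adjusted p = 0.377). DDC, the aromatic amino acid decarboxylase gene beside GRB10 and itself imprinted in some tissues, also fell, by 0.36 in R1 (SE 0.0644, edgeR adjusted p = 6.32e-05) and by 0.61 in R2 (SE 0.0655, adjusted p = 1.64e-08) on the log2 scale.

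MEST, a paternally expressed gene for a protein of the alpha/beta hydrolase fold family (chromosome 7, 130486175 to 130506465, plus strand), did not pass the test in any comparison. It was at 72.3, 66.7 and 71.9 CPM in parental, 69.4, 70.0 and 63.2 in R1, and 63.7, 67.4 and 66.0 in R2 libraries, and the lines overlapped. Its log2 fold changes were -0.06 in R1 (SE 0.0593, edgeR adjusted p = 0.49), -0.10 in R2 (SE 0.0594, adjusted p = 0.226) and -0.04 between R2 and R1 (SE 0.0597, adjusted p = 0.75). COPG2, a coat protein gene that overlaps MEST on the opposite strand, was at 26.5 ± 0.973, 25.6 ± 1.35 and 25.4 ± 1.99 CPM in the 3 lines in the same order (SD, n = 3) and passed no test.

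**Figure D3:**
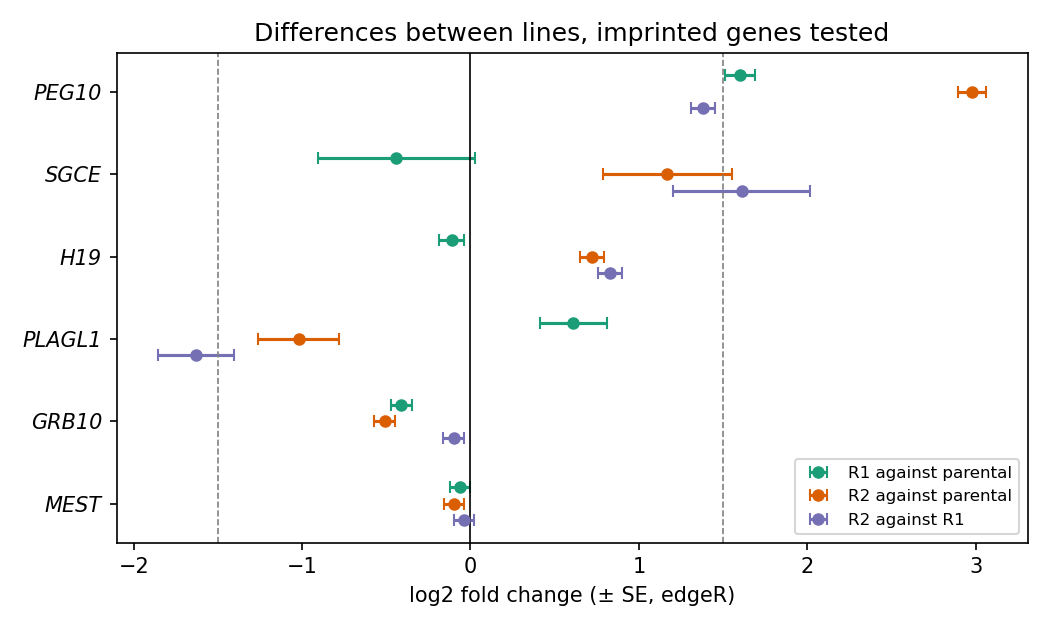
Log2 fold change (horizontal axis, ± SE derived from the edgeR test) of the 6 imprinted genes tested, in each of the 3 comparisons of LIM1215 lines. Dashed lines mark the size threshold of 1.5. PEG10 lies right of 0 in all 3 comparisons, and PLAGL1 lies right of 0 in R1 (0.61) and left in R2 (-1.02).

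Per kilobase of exon, MEST was the member of highest level in parental cells, at 14.7 ± 0.655 CPM per kb, ahead of H19 at 9.02 ± 0.269 and GRB10 at 7.64 ± 0.505 (SD, n = 3). PEG10 stood at 1.63 ± 0.253 CPM per kb in parental cells and at 12.9 ± 0.414 in R2, where H19 had 14.9 ± 1.20 and MEST 13.8 ± 0.392. The R2 difference between H19 and MEST was smaller than the SD of H19 and larger than that of MEST, and was not tested. PLAGL1 and SGCE were the lowest of the genes tested in each line, at 0.244 and 0.0647 CPM per kb in R2. Before division by length they stood at 1.56 and 1.35 CPM in R2. The lengths, 6410 bases for PLAGL1 and 20876 for SGCE, join the exons of all transcripts, so levels per kb depend on the transcripts annotated.

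Of the 10 members, 6 held enough counts to be tested. The members and the gene lists below were chosen with earlier results of these data known. Their shares beside those of all genes are therefore description only. A differentially expressed gene (DEG) was one whose adjusted p reached 0.01 and whose log2 fold change was 1.5 or more in size. Against parental cells, 1 member was a DEG in R1, where 5.14% of the 19102 genes tested were (3.24% higher and 1.91% lower), and 1 in R2, where 4.82% were (2.63% higher and 2.19% lower). PEG10, higher, was the member called in each case. Between R2 and R1, 2 members were DEGs, where 0.764% of all genes were, with SGCE higher (0.215% of all genes) and PLAGL1 lower (0.55%).

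At any size, 2 members passed the test in R1 (27.3% of all genes) and 4 in R2 (23.8%). PEG10 rose and GRB10 fell in R1, where 14.0% of all genes rose and 13.4% fell, and in R2 PEG10 and H19 rose while GRB10 and PLAGL1 fell, where 12.3% rose and 11.6% fell. Between the resistant lines 4 members passed (7.16% of all genes), with PEG10, SGCE and H19 higher in R2 (3.39%) and PLAGL1 lower (3.77%). The libraries of R1 and parental did not overlap for 3 members (44.0% of all genes), those of R2 and parental for 5 (42.8%) and those of R2 and R1 for 5 (28.0%). Both resistant lines were set against the same parental libraries, so their values are given side by side and not as separate evidence.

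The genes of most similar pattern to a member were found by the root-mean-square difference of centred log2 CPM over the 9 libraries, among 13038 genes. For PEG10 these included FHL1 (0.179) and S100A4 (0.252), with FHL1 at 13.0 CPM in parental, 39.6 in R1 and 82.2 in R2. For PLAGL1 they were APOBEC3C (0.218), B3GNT9 (0.234) and DMRT2 (0.254). For SGCE they were RASSF4 (0.391), AKR1C3 (0.413) and CYP39A1 (0.425), at greater distance.

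A wider list of 67 further imprinted genes was examined beside the members. Of these, 23 were at 0 in all libraries and 36 were tested. A listed 0 need not mean absence of RNA: SNURF was at 0 and SNRPN, which overlaps it on the same strand, held 1 count, and the counting of reads in overlapping genes is unknown here. In R1, 4 rose and 4 fell (22.2% of those tested, against 27.3% of all genes), with 4 DEGs (11.1%, against 5.14%). In R2, 8 rose and 8 fell (44.4%, against 23.8%), with 3 DEGs (8.33%, against 4.82%). Between R2 and R1, 2 were higher and 3 lower (13.9%, against 7.16%), with 0 DEGs by edgeR and 0 by DESeq2 (0.764% of all genes by edgeR), and 13 had an unadjusted p under 0.05. The median log2 fold change was -0.07 in R1 and -0.03 in R2, beside -0.01 and 0 over all genes.

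OSBPL5, a lipid transfer protein gene near PHLDA2 that is imprinted in placenta, rose most among those with counts in all lines. It was at 4.37, 5.71 and 4.62 CPM in parental, 31.8, 36.2 and 34.5 in R1, and 32.5, 34.1 and 37.4 in R2 libraries. It was 7.03-fold higher in R1 (log2 fold change 2.81, SE 0.106, edgeR adjusted p = 6.83e-18) and 7.14-fold higher in R2 (2.84, SE 0.106, adjusted p = 5.77e-18). R1 and R2 overlapped.

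NAP1L5, a paternally expressed nucleosome assembly protein gene, fell from 25, 20 and 40 counts in parental libraries to 3, 1 and 2 in R1 and to 0 in all R2 libraries. The log2 fold change in R1 was -3.68 (SE 0.487, edgeR adjusted p = 1.09e-06), and in R2 NAP1L5 was at least 27.4-fold lower, taking 3 counts over the R2 libraries as the floor. Bounds of this kind take the counts of the higher line as exact, without counting error. WT1, a zinc finger transcription factor gene, held 46 counts in the parental libraries, 1 in R1 and 0 in R2. The ratio was 44.5-fold lower in R1 (95% counting interval 7.6 to 1800) and at least 14.9-fold lower in R2. MKRN3, a ubiquitin ligase gene of the Prader-Willi region, held 0 counts in parental, 11 in R1 and 5 in R2 libraries and was at least 3.79-fold higher in R1 (edgeR adjusted p = 0.00909), a call lost in 8 of 9 fits that left out 1 library, with adjusted p up to 0.0393. ANO1, a calcium-activated chloride channel gene, fell in R2 (log2 fold change -1.11, SE 0.0914, edgeR adjusted p = 1.21e-10) and not in R1 (0.12, SE 0.0824, adjusted p = 0.297), and R2 lay below R1 (-1.22, SE 0.0908, adjusted p = 1.5e-10).

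KCNQ1, the potassium channel gene next to CDKN1C, fell in R2 (log2 fold change -0.34, SE 0.0586, edgeR adjusted p = 4.22e-05) and did not pass the test in R1 (-0.10, adjusted p = 0.175). KCNQ1OT1, the paternally expressed antisense RNA that silences CDKN1C and PHLDA2 in cis, was at 5.13, 3.40 and 3.62 CPM in parental, 3.44, 2.07 and 4.44 in R1, and 5.71, 6.01 and 4.96 in R2 libraries. R2 was above R1 by 0.75 (SE 0.204, edgeR adjusted p = 0.0143), which missed the threshold, and passed it in 2 of 9 fits that left out 1 library. MESTIT1, the antisense RNA in MEST, held 10, 14 and 12 counts over the libraries of the 3 lines and passed no test.

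**Figure D4:**
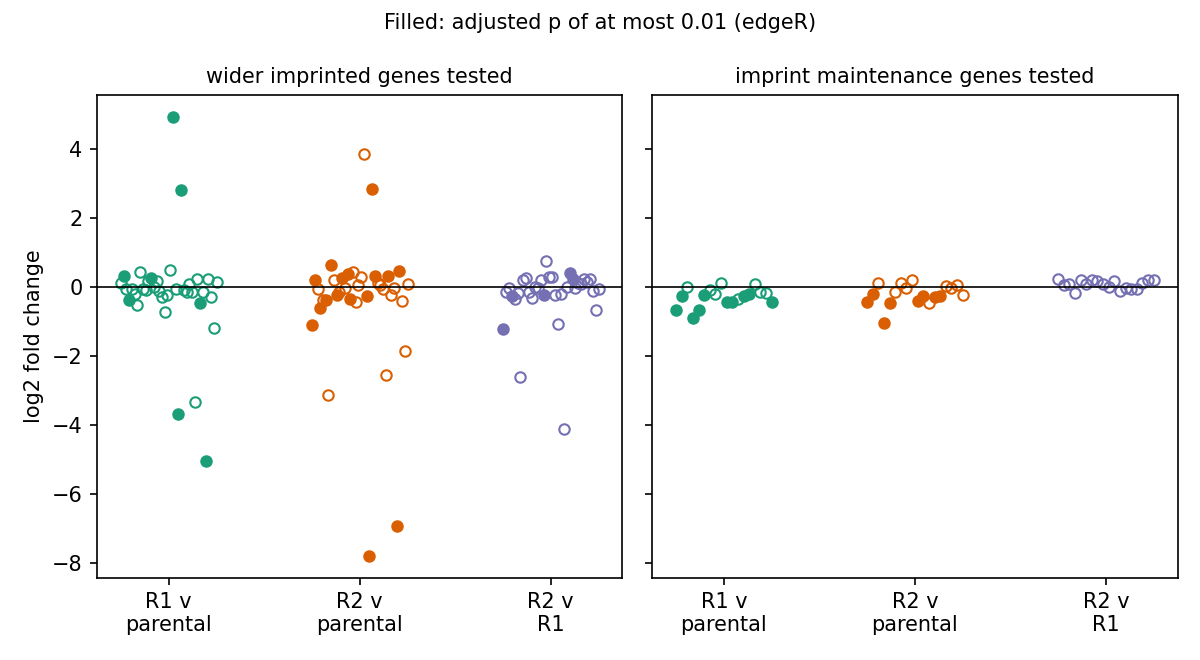
Log2 fold change (vertical axis) of each tested gene of the wider imprinted list (left) and of the imprint maintenance list (right) in each of 3 comparisons of LIM1215 lines; filled points passed an edgeR adjusted p of 0.01, and genes at 3 counts or fewer in both lines are left out. The maintenance genes that passed all lie below 0 (10 in R1, 8 in R2), and fitted values of genes at 0 in a line depend on the prior count.

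Genes that set, keep or remove the methylation and chromatin marks of imprints were also listed, 24 in number, of which 18 were tested and 6 were at 0. ZFP57 was at 0, and so was EHMT2, a broadly expressed histone methyltransferase gene, so that a listed 0 is not read as absence of RNA. The list includes TET1, TET2 and TET3, which oxidise methylated cytosine towards its removal, and TET2 and TET3 were among those that fell in both lines. In R1, 10 fell and 0 rose, where 13.4% of all genes fell and 14.0% rose. In R2, 8 fell and 0 rose, where 11.6% fell and 12.3% rose. The changes were small, with 0 DEGs in either line by edgeR and by DESeq2 (12 and 11 had an unadjusted edgeR p under 0.05) and a median log2 fold change of -0.24 in R1 and -0.21 in R2. DNMT3A, a methyltransferase that sets methylation de novo, was at 39.0, 35.2 and 37.5 CPM in parental, 20.5, 20.1 and 20.4 in R1, and 17.4, 17.9 and 18.6 in R2 libraries. It fell by 0.88 in R1 (SE 0.0753, edgeR adjusted p = 2.73e-10) and by 1.05 in R2 (SE 0.0765, adjusted p = 8.83e-12) on the log2 scale, and R1 and R2 did not overlap with parental. Between the resistant lines 0 of the 18 passed the test by edgeR and 0 by DESeq2, 7 had an unadjusted edgeR p under 0.05, and the median was 0.10.

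Within 250 kb of the members lay 200 genes of the RefSeq annotation that were not on the wider imprinted list, of which 26 were tested. Genes of that list in the same windows, such as OSBPL5, DDC and KCNQ1, are counted above and not here. In R1, 3 rose and 4 fell (26.9% of those tested, against 27.3% of all genes), and in R2, 4 rose and 5 fell (34.6%, against 23.8%), with 0 and 2 DEGs by edgeR (0 and 1 by DESeq2), and 14 in R1 had an unadjusted p under 0.05. Of all genes tested, 5.14% were DEGs in R1 and 4.82% in R2. The DEGs among the 26 were CASD1 and STX11, a syntaxin gene near PLAGL1 with 12 parental counts and 0 in R2, at least 3.88-fold lower (edgeR adjusted p = 0.00697). STX11 missed the threshold in 4 of 9 fits that left out 1 library, with adjusted p up to 0.0312, and with DESeq2 (adjusted p = 0.0189).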

How the data were processed

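Poly(A) RNA had been sequenced in 9 libraries, 3 for each of the LIM1215 parental, R1 and R2 lines, with a stranded kit. The authors deposited raw counts per gene, made with STAR on hg38 and HTSeq 0.9.1 per the labels, with no normalization. The gene annotation and the treatment of overlapping genes were not given in the sources used here. Libraries were grouped by line from their titles.

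The 19102 genes with 10 or more counts in all libraries together entered edgeR 4.0.16 in R 4.3.3 (limma 3.58.1), with TMM scaling and a quasi-likelihood test on all 9 libraries. P-values were adjusted over all genes tested. Each SE given with an edgeR result was derived, as the size of the log2 fold change divided by the square root of the F statistic. DEGs reached an adjusted p of 0.01 with a log2 fold change of 1.5 or more in either direction. CPM values use the TMM factors, and levels per kb divide by the joined length of the exons of all transcripts of a gene in GENCODE v44. A gene at 3 counts or fewer over the 3 libraries of a line was below detection. Lower bounds use 3 counts for the line at 0 and take the counts of the other line as exact, without counting error. Counting intervals are exact at 95%. The fit was tested on simulated data.

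Named genes were all members, listed imprinted and maintenance genes that passed the test at a log2 fold change of 1 or more in size, neighbour DEGs and the 3 genes most like each member DEG. A result under this rule is not reported here. Genes of the wider list within 250 kb of a member (COPG2, DDC, KCNQ1, KCNQ1OT1, MESTIT1 and PPP1R9A) were added after their values were seen. The members and lists were chosen with earlier results of these data known. Alternatives were DESeq2 1.42.0, its size factors, total counts, other filters on low counts, the 6 libraries of a contrast alone, a size threshold of 1, a 500 kb window, a replicate block and leaving out each library.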

Additional observations from a re-analysis of the deposited data

Results flagged for a closer look

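These genes are listed because their change against the parental line differed between the 2 resistant lines, tested as R2 against R1 in edgeR's quasi-likelihood model with Benjamini-Hochberg adjustment. Among the imprinted genes described, PEG10 was higher in R2 by a log2 fold change of 1.38, SGCE by 1.61 and H19 by 0.83, and PLAGL1 was lower with -1.63. Of the wider imprinted list, ANO1 had -1.22, PPP1R9A 0.41, RB1 0.24, DDC -0.26 and KCNQ1 -0.23. Of the neighbours within 250 kb, CASD1, beside PEG10, had -1.02, CEP41, near MEST, 0.36 and FIGNL1, near GRB10, 0.28. The calls of SGCE, DDC and KCNQ1 were lost in 5, 7 and 6 of the 9 fits that left out 1 library. RB1, CEP41 and FIGNL1 lie outside the rule for named genes, and such fits are not given for them.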

How the results depend on the processing

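Of the members' log2 fold changes under the alternatives, 271 kept direction and side of the threshold, 8 lost a call, 5 gained one and 1 changed sign. Member DEG counts in R1 were 0 to 1 when 1 library was left out, with 0 without parental replicate 3, where PEG10 had 1.49. In R2 they were 1 to 2, with 2 without parental replicate 3, where SGCE passed (1.77), and 2 at a size threshold of 1. Between R2 and R1 they were 1 with at least 10 counts in every library and 1 with DESeq2, and 0 to 2 when 1 library was left out, with 0 without R2 replicate 1. Requiring 10 counts in every library left 1 DEG of the wider list in R1 and 1 in R2, and 1 neighbour DEG in R2, where genes of low counts are no longer tested. A size threshold of 1 gave 1 wider-list DEG between R2 and R1, 1 maintenance DEG in R2, and 1 neighbour DEG each in R1 and between R2 and R1. The 500 kb window gave 1 neighbour DEG in R1. Neighbour DEGs when 1 library was left out were 0 to 1 in R1 and 1 to 2 in R2, and DESeq2 gave 1 in R2. Except where stated, the cause was not tested.

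Uncalled values that changed sign were SGCE in R1 (0.16 without parental replicate 3, with a range of -0.92 to 0.16 when 1 library was left out), OSBPL5 between R2 and R1 (-0.04 to 0.07), COPG2 in R2 (-0.11 to 0.00) and between R2 and R1 (-0.07 to 0.05, and 0.01 with total counts only) and MESTIT1 between R2 and R1 (-0.45 to 0.19).

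Correlations of deviations ran from -0.135 to 0.344 between same-numbered libraries and from -0.342 to 0.253 between libraries of different number. The highest was that of parental replicate 2 with R1 replicate 2. Replicate numbers were not used as pairs in the main fit. With the replicate block, member DEGs numbered 1 in R1, 1 in R2 and 2 between R2 and R1. The block moved PLAGL1 in R1 past the threshold (0.60, adjusted p = 0.00624) and MKRN3 in R1 out of it (4.94, adjusted p = 0.0106), and KCNQ1OT1 between R2 and R1 past it (0.76, adjusted p = 0.00189). At this depth, genes with under 10 counts over the 9 libraries were not tested.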
